A study of Mus musculus with 8 samples.

Results

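The Cyp2c cytochrome P450 genes were read out in 8 mouse livers by sequencing of polyadenylated RNA. A list of 10 gene names defined the set, and the genes were found by matching each name to the symbol in the deposited gene tables. The tables held 9 of the 10 names among 55450 genes: Cyp2c29, Cyp2c37, Cyp2c38, Cyp2c39, Cyp2c40, Cyp2c50, Cyp2c54, Cyp2c55 and Cyp2c69. No row carried the symbol Cyp2c44. RefSeq gives that name as a synonym of Cyp2c23, which the tables list, and Cyp2c23 is described below beside the members and is not counted among them. In all, 18 symbols of the tables began with Cyp2c. The control group was 4 Cebpa flox/flox mice without Cre (Cre-), and the knockout group was 4 mice with Cre (Cre+) whose hepatocytes lacked Cebpa, the gene of the transcription factor C/EBP alpha. No source used here names the promoter that drove Cre. All 8 mice were 10 weeks old and were given control liquid diet over 5 days followed by 4 weeks on liquid food containing 5% ethanol (volume), so both groups were ethanol fed and no value measures a response to ethanol.

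CYP2C enzymes sit in the endoplasmic reticulum of hepatocytes, take electrons from the reductase encoded by Por, and oxidise drugs, steroids, retinoids and fatty acids. In mice the family has expanded into a cluster of closely related genes. Several of its enzymes turn arachidonic acid into epoxides (EETs) or hydroxylated acids (HETEs). The xenobiotic receptors CAR (Nr1i3) and PXR (Nr1i2), the liver factor HNF4 alpha (Hnf4a) and the sex-dependent pattern of growth hormone release are known regulators of Cyp2c genes in rodent liver.

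Expected counts, which are estimated counts that need not be whole, summed to between 21048350 and 28148744 per liver. Levels are given as CPM, a count relative to the scaled library size, or as TPM, which also divides by transcript length and was computed by the authors. TPM is used to compare levels between genes. The exceptions are sums, shares and a ratio within groups of closely related Cyp2c genes, which use CPM or counts. Cebpa itself was at 263.6 to 320.3 CPM in the 4 controls and 5.44 to 9.26 CPM in the 4 knockouts, so its values followed the genotype labels (log2 fold change -5.38, SE 0.18, edgeR adjusted p = 4.78e-07). The summed level of 15 hepatocyte markers was 133208 to 153745 CPM in controls and 135857 to 146568 CPM in knockouts, as the liver label requires. The log2 fold change was below 0 for 12 of these 15 genes (list median -0.26). Every knockout lay below every control for 4 of the 15, against 5.92% of all genes tested. As lower 1 was called, against 1.21% of all genes tested. In whole liver, fewer cells of a type and less RNA per cell cannot be told apart. Nothing in the labels says more of the source of each sample than its number, so p-values measure the spread between these livers.

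The 9 members lie on chromosome 19 of mm10, in a stretch of 1210.7 kb that holds all the Cyp2c genes of the tables but Cyp2c23 and the pseudogene Cyp2c73-ps. Cyp2c55 (ENSMUSG00000025002.5, 39007019 to 39042693, plus strand) lies near one end. Cyp2c40 (ENSMUSG00000025004.15, 39767071 to 39812814) and Cyp2c69 (ENSMUSG00000092008.2, 39842814 to 39886799) are neighbours on the minus strand, next to Cyp2c68 and Cyp2c67. On the plus strand lie Cyp2c29 (ENSMUSG00000003053.17, 39269405 to 39330713), Cyp2c39 (ENSMUSG00000025003.6, 39510862 to 39568529), Cyp2c37 (ENSMUSG00000042248.4, 39992424 to 40012243) and Cyp2c50 (ENSMUSG00000054827.12, 40089688 to 40113950). On the minus strand lie Cyp2c38 (ENSMUSG00000032808.2, 39389556 to 39463075) and Cyp2c54 (ENSMUSG00000067225.2, 40037940 to 40073827). Identity was counted over the longer coding sequence of each pair. The coding sequence of Cyp2c69 was 97.7% identical to that of Cyp2c67, and that of Cyp2c40 was 92.6% identical to that of Cyp2c68. The coding sequence of Cyp2c40 has 1560 bases against 1473 for Cyp2c68, and its extra bases count as differences. Cyp2c37, Cyp2c50 and Cyp2c54 were 95.1% to 96.1% identical to each other, and Cyp2c38 and Cyp2c39 were 94.2% identical. Cyp2c55 stood apart, with 77.6% identity to its nearest relative, Cyp2c29.

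The promoters of the 3 genes that differed between the genotypes are shown together with those of Cyp2c67 and Cyp2c68, the near-identical neighbours of Cyp2c40 and Cyp2c69 that did not pass the test. Each is the 250 bases before the RefSeq start of the gene on GRCm38.p6, read 5′ to 3′ in the direction of the gene. The windows are chr19:39006769-39007018 for Cyp2c55 on the plus strand and, on the minus strand, chr19:39812815-39813064 for Cyp2c40, chr19:39886770-39887019 for Cyp2c69, chr19:39649043-39649292 for Cyp2c67 and chr19:39741102-39741351 for Cyp2c68. Capitals mark matches on either strand to TTGCNNAA, a core of C/EBP sites, or to CAAAGTCC, a core of HNF4 sites.
Cyp2c55: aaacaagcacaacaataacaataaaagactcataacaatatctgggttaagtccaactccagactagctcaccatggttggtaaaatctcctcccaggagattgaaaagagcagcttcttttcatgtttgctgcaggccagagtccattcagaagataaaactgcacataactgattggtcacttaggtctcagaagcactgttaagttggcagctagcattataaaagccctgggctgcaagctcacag
Cyp2c40: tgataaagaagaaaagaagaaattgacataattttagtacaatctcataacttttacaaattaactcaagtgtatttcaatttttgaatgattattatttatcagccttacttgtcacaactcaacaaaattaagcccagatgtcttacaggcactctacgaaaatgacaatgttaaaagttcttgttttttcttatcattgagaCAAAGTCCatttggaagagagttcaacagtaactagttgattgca
Cyp2c69: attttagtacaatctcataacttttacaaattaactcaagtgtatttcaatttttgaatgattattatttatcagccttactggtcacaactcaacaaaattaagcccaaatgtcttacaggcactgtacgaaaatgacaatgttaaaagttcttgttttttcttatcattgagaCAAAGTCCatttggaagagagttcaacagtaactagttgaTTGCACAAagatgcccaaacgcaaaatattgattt
Cyp2c67: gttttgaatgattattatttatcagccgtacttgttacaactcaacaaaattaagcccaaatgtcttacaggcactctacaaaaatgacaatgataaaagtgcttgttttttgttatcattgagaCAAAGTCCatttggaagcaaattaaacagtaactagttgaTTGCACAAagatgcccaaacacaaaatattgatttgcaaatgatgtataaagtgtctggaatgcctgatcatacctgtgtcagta
Cyp2c68: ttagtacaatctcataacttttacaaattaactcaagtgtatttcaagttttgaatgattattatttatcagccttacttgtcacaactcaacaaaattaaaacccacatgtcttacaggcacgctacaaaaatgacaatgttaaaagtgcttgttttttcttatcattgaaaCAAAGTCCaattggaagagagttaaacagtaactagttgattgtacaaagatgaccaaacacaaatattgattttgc

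The promoter windows of Cyp2c40 and Cyp2c69 were 86.8% identical, and those of Cyp2c68 and Cyp2c69 were 92.8% identical. The HNF4 core was present in 7 of the 13 Cyp2c windows, those of Cyp2c40, Cyp2c67, Cyp2c68, Cyp2c69, Cyp2c65, Cyp2c66 and Cyp2c70, and 1.2% of all 32851 promoter windows of that length hold it. Its first base lay at -45 from the annotated start of Cyp2c40, -75 of Cyp2c69, -77 of Cyp2c68, -125 of Cyp2c67, -116 of Cyp2c65, -104 of Cyp2c66 and -64 of Cyp2c70. The same letters thus lay at different distances from the annotated starts. The windows of Cyp2c40, Cyp2c67, Cyp2c68 and Cyp2c69 were 63.2% to 92.8% identical to each other, and those of Cyp2c65 and Cyp2c66 83.2%. The 7 windows are therefore not separate observations to set against the share of all promoters. Only exact letters were searched. The windows of Cyp2c29, Cyp2c37 and Cyp2c39 hold CAAAGTCT, which differs from the core in its last letter. The C/EBP core, which 9.56% of all windows hold, was matched by TTGCACAA in Cyp2c69 and Cyp2c67. The Cyp2c40 window ends, at the annotated start, within the stretch that holds this match in Cyp2c69, so it cannot show whether Cyp2c40 has the whole of it. Among the other members the core was matched once, in Cyp2c37. The letters GTTAATNAT, a core of HNF1 sites found in 0.74% of all windows, occurred in none of the 13 Cyp2c windows that RefSeq supplied, and Cyp2c55 held no match to any of the 3 cores. A match is a stretch of letters and not a measured binding site. The table held no window for Cyp2c54 or Cyp2c23.

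In both genotypes the members spanned a wide range of levels. In controls Cyp2c29 was at 787.1 ± 163 TPM, Cyp2c50 at 607.4 ± 159, Cyp2c37 at 394.8 ± 90.4, Cyp2c54 at 218.0 ± 64.7 and Cyp2c38 at 32.4 ± 8.31 TPM (SD, n = 4). Below these came Cyp2c40 at 3.19 ± 1.13 TPM, Cyp2c39 at 2.49 ± 1.26, Cyp2c55 at 1.13 ± 0.288 and Cyp2c69 at 1.04 ± 0.633 TPM. Of the neighbours among the members in controls, Cyp2c29 and Cyp2c50 overlapped in range, as did Cyp2c37 and Cyp2c54 and each pair from Cyp2c40 down to Cyp2c69. In knockouts the same 5 genes led, with overlapping ranges for each neighbouring pair from Cyp2c29 down to Cyp2c54, and Cyp2c55 ranked above Cyp2c39 and Cyp2c40 with 9.91 ± 3.83 TPM (SD, n = 4), its range overlapping that of Cyp2c39. The members with a large difference between genotypes were therefore among the least abundant ones.

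**Figure D1:**
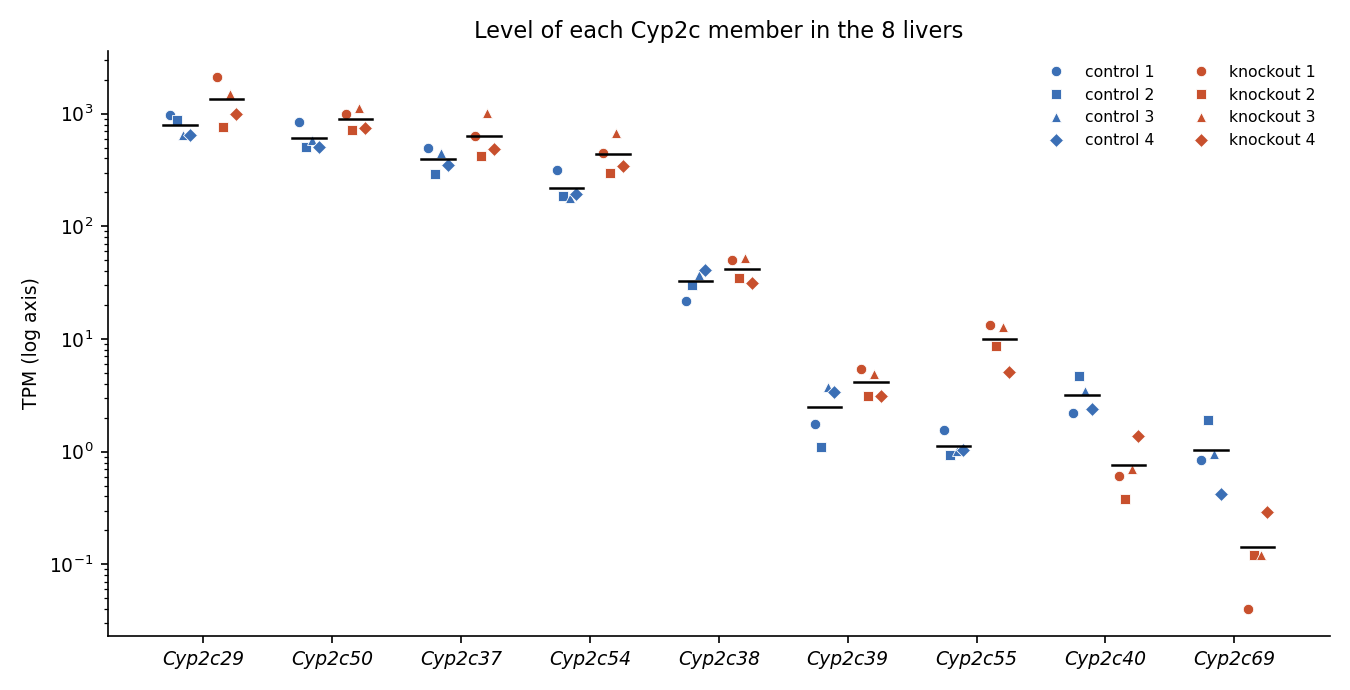
TPM of the 9 members in each liver, on a log axis. Points are livers, shapes the replicate numbers and black lines group means. The groups separate for Cyp2c55, Cyp2c40 and Cyp2c69, and overlap for the other 6 genes.

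Across the family 1 member rose and 2 fell. All 9 members passed the filter on low counts, and Cyp2c55 was higher and Cyp2c40 and Cyp2c69 lower in the knockouts at an edgeR adjusted p below 0.05. Over all 13303 genes tested, 2.06% were called, 0.849% as higher and 1.21% as lower. The 274 calls split into 113 higher and 161 lower, where scaling to library size alone gave 161 and 115 and limma on log2(TPM + 1) gave 151 and 86. The directions of the 3 called members were the same under each of these. The same 3 members were the ones whose groups did not overlap, against 11.5% of all genes (5.54% with every knockout above every control and 5.92% with every knockout below). The log2 fold changes of the other 6 members were all positive, as were 50.7% of those of all genes, and none passed the test. Their median was 0.60, and that of all genes 0.00. Leaving out control 2 and knockout 4 together, livers placed far from their groups in earlier results of these data, also gave 3 called members.

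Cyp2c55 rose 8.08-fold. CYP2C55 hydroxylates arachidonic acid, is abundant in the colon and is known as inducible through CAR and PXR in mouse liver. Its level was 2.35, 1.31, 1.43 and 1.52 CPM across controls 1 to 4, and across knockouts 1 to 4 it was 18.2, 10.997, 17.8 and 6.72 CPM. Every knockout lay above every control, and knockout 4 was the lowest of its group. On the log2 scale the difference was 3.01 (SE 0.35), with an edgeR adjusted p = 0.00495, and the call held in each of the 8 fits that left out 1 liver. Its counts were whole in all 8 livers and none of its 75-base windows occurred in another Cyp2c transcript. Counts are whole where no read is divided between genes. The gene Gm23800, which overlaps it on the opposite strand, had 0 counts in all livers.

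Genes of other cell types were read beside Cyp2c55. The intestinal markers Cdx1, Cdx2 and Sis had 0 counts in every liver, and the 11 genes of the intestinal list, 2 of them Cyp2c genes, summed to 51.4 to 108.6 CPM in controls and 69.004 to 90.1 CPM in knockouts. The 11 cholangiocyte markers summed to 40.5 to 80.7 CPM in controls and 144.9 to 391.9 CPM in knockouts. All 8 tested had a positive log2 fold change (list median 1.135) and an unadjusted p below 0.05. Of the 8, 4 were called as higher and 5 had every knockout above every control. The 11 lymphocyte markers summed to 2.81 to 5.35 CPM in controls and to 36.4, 12.5, 5.39 and 9.96 CPM in knockouts 1 to 4. Of these markers 2 were tested, 1 with a positive and 1 with a negative log2 fold change, and neither was called. The 14 macrophage markers summed to 202.5 to 414.6 CPM in controls and 321.8 to 535.2 CPM in knockouts, and the log2 fold change was above 0 for all 14 (list median 0.53), of which 5 reached an unadjusted p below 0.05. The 13 stellate markers summed to 154.9 to 304.5 and 264.5 to 536.3 CPM, and all 13 were positive (list median 0.39), of which 5 reached that level and 2 did not overlap between the groups. Of the 13 endothelial markers, with sums of 274.1 to 345.2 and 327.0 to 411.8 CPM, 12 were positive, with a median of 0.19. The 7 erythroid markers summed to 256.2 to 519.6 and 187.1 to 334.5 CPM, and all 5 tested were negative, with a median of -0.69 and 1 called as lower. Over all genes tested, 18.5% had an unadjusted p below 0.05, 0.849% were called as higher and 1.21% as lower. Every knockout lay above every control for 5.54% of all genes and below for 5.92%. The part of these cells in any Cyp2c difference was not tested.

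Cyp2c40 fell 4.22-fold. CYP2C40 hydroxylates arachidonic acid, and the gene is known as more abundant in female than in male mouse liver. Its level was 2.97, 5.45, 4.41 and 3.13 CPM across controls 1 to 4, and across knockouts 1 to 4 it was 0.744, 0.426, 0.878 and 1.63 CPM. The groups did not overlap, and knockout 4 was the knockout nearest to the controls. On the log2 scale the difference was -2.08 (SE 0.37), with an edgeR adjusted p = 0.0208. The call was lost without control 3, knockout 1 or knockout 3, with edgeR adjusted p of 0.0562, 0.0721 and 0.0624.

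Cyp2c69, also female-biased in mouse liver, fell 7.28-fold from a low level. It was at 1.03, 2.19, 1.10 and 0.492 CPM across controls 1 to 4, and across knockouts 1 to 4 it was 0.0476, 0.123, 0.134 and 0.307 CPM. The lowest control and the highest knockout, knockout 4 again, were close to each other. The counts behind these values were small, 105.4 in the 4 controls together and 16.1 in the 4 knockouts together. On the log2 scale the difference was -2.86 (SE 0.58), with an edgeR adjusted p = 0.0383. The call held in 2 of the 8 fits with 1 liver left out, those without control 4 or knockout 4. It was lost without control 1, 2 or 3 and without knockout 1, 2 or 3, with edgeR adjusted p of 0.0661 to 0.117.

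**Figure D2:**
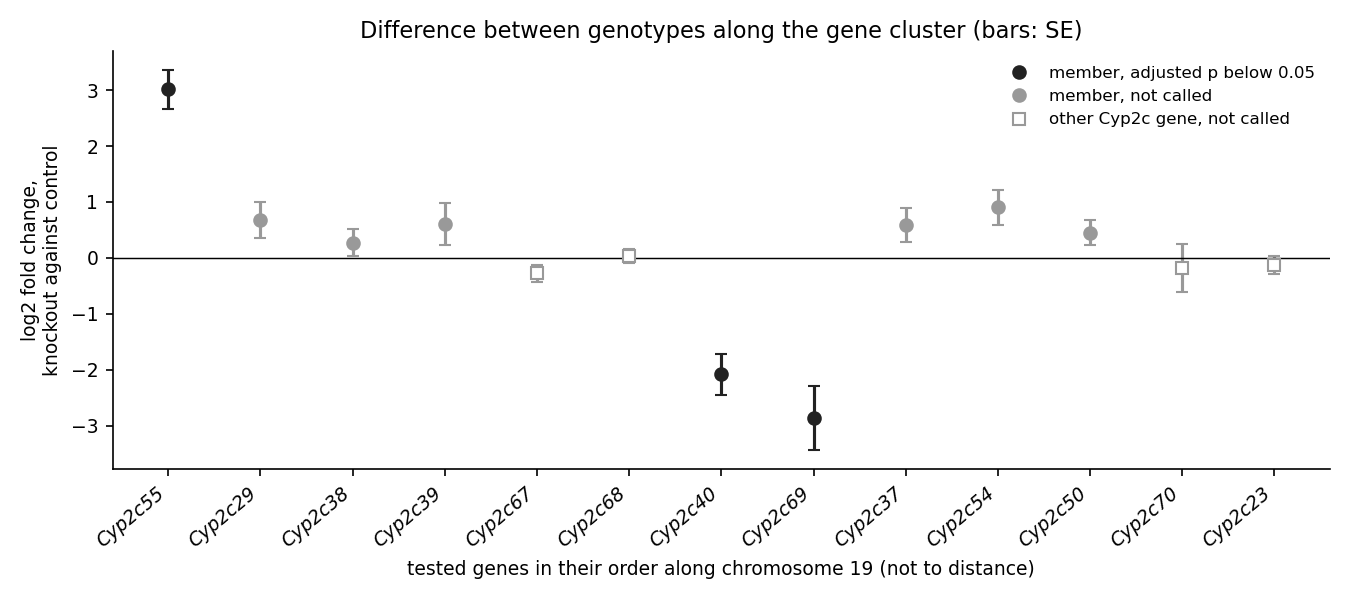
Log2 fold change with its SE (edgeR, 4 knockouts against 4 controls) of the 13 Cyp2c genes tested, in chromosome order. Cyp2c55 at 3.01 lies above 0, Cyp2c40 at -2.08 and Cyp2c69 at -2.86 lie below, and Cyp2c67 and Cyp2c68 beside them are at -0.28 and 0.03.

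The levels of Cyp2c40 and Cyp2c69 rest on how reads were divided among 4 near-identical genes. Of the 75-base windows of the Cyp2c40 transcript 57.1% also occurred in another Cyp2c transcript, and 43.2% of those of Cyp2c69, 36.0% of Cyp2c67 and 28.5% of Cyp2c68 did. The read length is not given in the sources used here, so these shares describe the sequences only. Cyp2c67 and Cyp2c68 together were at 448.5 ± 80.1 CPM among controls against 402.0 ± 40.6 CPM among knockouts, and Cyp2c40 and Cyp2c69 together at 5.20 ± 1.82 and 1.07 ± 0.606 CPM (SD, n = 4). Of the counts of all 4 genes, the fallen pair took 0.960%, 1.33%, 1.27% and 0.931% in controls 1 to 4 and 0.204%, 0.155%, 0.241% and 0.430% in knockouts 1 to 4. The sum of the 4 genes, which does not depend on how reads were divided within it, was 453.7 ± 81.9 CPM among controls against 403.0 ± 41.2 CPM among knockouts (SD, n = 4), and its groups overlapped. The pair took 1.12% ± 0.207 of these counts in controls and 0.258% ± 0.120 in knockouts (SD, n = 4), so its fall had little weight in the total.

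**Figure D3:**
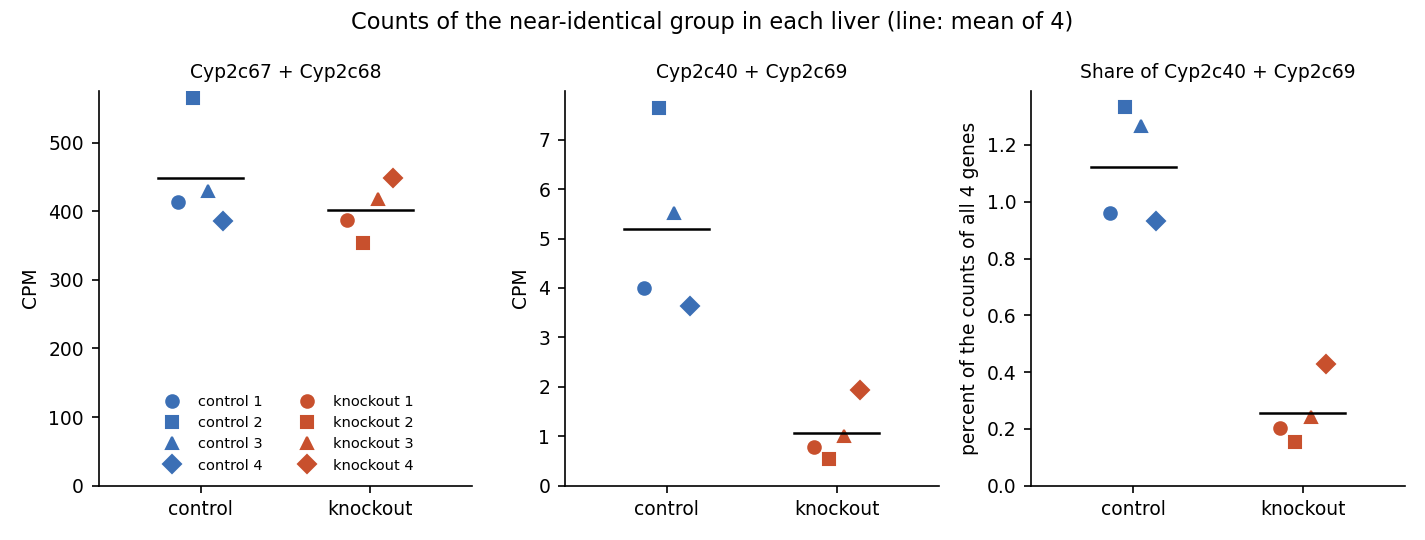
Summed CPM of Cyp2c67 and Cyp2c68 (left) and of Cyp2c40 and Cyp2c69 (middle), and the share of the counts of all 4 genes given to Cyp2c40 and Cyp2c69 (right). Points are livers and lines group means. The groups overlap at the left and do not overlap in the middle and at the right, where controls run from 0.931% to 1.33% and knockouts from 0.155% to 0.430%.

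Cyp2c29, Cyp2c38 and Cyp2c39 had higher means in the knockouts, and none passed the test. CYP2C29 and CYP2C38 are arachidonic acid epoxygenases, and CYP2C39 is known to hydroxylate retinoic acid. Cyp2c29, the most abundant member, was at 1294, 1095, 815.0 and 847.8 CPM across controls 1 to 4, and across knockouts 1 to 4 it was 2554, 866.5, 1871 and 1163 CPM. Knockouts 1 and 3 lay above every control, and knockouts 2 and 4 lay among them. On the log2 scale the difference was 0.67 (SE 0.32), with an edgeR adjusted p = 0.305. Without knockout 1 it was 0.35, and the fits that left out 1 liver ran from there to 0.88. Cyp2c39 was at 3.26 ± 1.62 CPM among controls against 5.02 ± 1.599 CPM among knockouts (SD, n = 4, log2 fold change 0.61, SE 0.37, edgeR adjusted p = 0.421). Cyp2c38 was at 69.7 ± 17.5 and 84.3 ± 24.3 CPM (SD, n = 4, log2 fold change 0.27, SE 0.24, edgeR adjusted p = 0.578). With 1 liver left out the log2 fold change ran from 0.36 to 0.85 for Cyp2c39 and from 0.12 to 0.40 for Cyp2c38. Of their windows 0.5% for Cyp2c29, 1.9% for Cyp2c38 and 3.0% for Cyp2c39 were shared with another Cyp2c transcript. The pseudogene Cyp2c53-ps overlaps Cyp2c29 on the same strand with 9.1 counts in all controls together and 20.0 in all knockouts together.

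Cyp2c54 had the widest difference among the 6 members that were not called. CYP2C37, CYP2C50 and CYP2C54 act on arachidonic acid as well. Cyp2c54 was at 417.6, 230.6, 225.0 and 252.3 CPM across controls 1 to 4, and across knockouts 1 to 4 it was 542.1, 335.5, 833.3 and 401.5 CPM. Control 1 alone reached the range of the knockouts. The log2 fold change was 0.91 (SE 0.31), with an unadjusted p of 0.0178, a level that 18.5% of all genes reached, and an edgeR adjusted p = 0.175. With 1 liver left out it ran from 0.59, without knockout 3, to 1.16, without control 1. DESeq2 called it, with an adjusted p = 0.0314.

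Cyp2c37 and Cyp2c50 also had higher means in the knockouts, with smaller differences. Cyp2c37 was at 668.4, 376.7, 572.8 and 462.9 CPM across controls 1 to 4, and across knockouts 1 to 4 it was 779.4, 487.2, 1291 and 585.4 CPM (log2 fold change 0.60, SE 0.31, edgeR adjusted p = 0.337). Cyp2c50 was at 1093, 620.7, 719.4 and 641.9 CPM across controls 1 to 4, and across knockouts 1 to 4 it was 1180, 791.3, 1370 and 861.2 CPM (log2 fold change 0.45, SE 0.23, edgeR adjusted p = 0.323). The groups overlapped for both. Without knockout 3 the log2 fold changes were 0.24 for Cyp2c37 and 0.29 for Cyp2c50, the lowest of the fits that left out 1 liver. These genes shared 13.8% to 17.8% of their windows with relatives. The sum of the 3 genes was 1570 ± 423 CPM among controls against 2365 ± 842 CPM among knockouts (SD, n = 4), with overlapping groups. Within the trio the CPM ratio of Cyp2c54 to Cyp2c37 was 0.393 to 0.625 in controls and 0.645 to 0.696 in knockouts, without overlap. This comparison was chosen after the values were seen.

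Of the 9 Cyp2c genes outside the list, 4 were tested and none passed. Cyp2c23, which carries the synonym Cyp2c44 and encodes an arachidonic acid epoxygenase, was at 354.7 ± 54.4 CPM among controls against 322.9 ± 69.6 CPM among knockouts (SD, n = 4, log2 fold change -0.14, SE 0.16, edgeR adjusted p = 0.687). Cyp2c67 was at 287.1 ± 66.2 and 237.0 ± 26.1 CPM (SD, n = 4, log2 fold change -0.28, SE 0.15, edgeR adjusted p = 0.367). Cyp2c68 was at 161.4 ± 23.7 and 165.0 ± 14.7 CPM (SD, n = 4, log2 fold change 0.03, SE 0.12, edgeR adjusted p = 0.914). Cyp2c70, whose enzyme makes muricholic acids from bile acids in mice, was at 147.1 ± 78.4 and 129.9 ± 52.3 CPM (SD, n = 4, log2 fold change -0.18, SE 0.43, edgeR adjusted p = 0.855). Cyp2c65 had 1 count in the 4 controls together and 12 in the 4 knockouts together. Cyp2c66 and Cyp2c73-ps had 0 counts in every liver, which at 3 counts allows up to 0.102 to 0.146 CPM per liver.

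Summed over all 18 genes, Cyp2c transcripts were at 2810.3 ± 481 TPM in controls and 4107 ± 1115 TPM in knockouts (SD, n = 4). By liver the sum ran from 2364 to 3469 TPM in controls and from 2905 to 5178 TPM in knockouts, so the groups overlapped. The 9 members made up 72.7% ± 4.24 of it in controls and 81.0% ± 5.07 in knockouts (SD, n = 4), with ranges of 66.6% to 76.3% and 76.1% to 85.9%. Cyp2c29 alone made up 27.9% ± 2.19 and 31.8% ± 7.37 (SD, n = 4). The 3 called members weighed little in the sum. Cyp2c55 had 0.0402% of it in controls and 0.240% in knockouts.

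**Figure D4:**
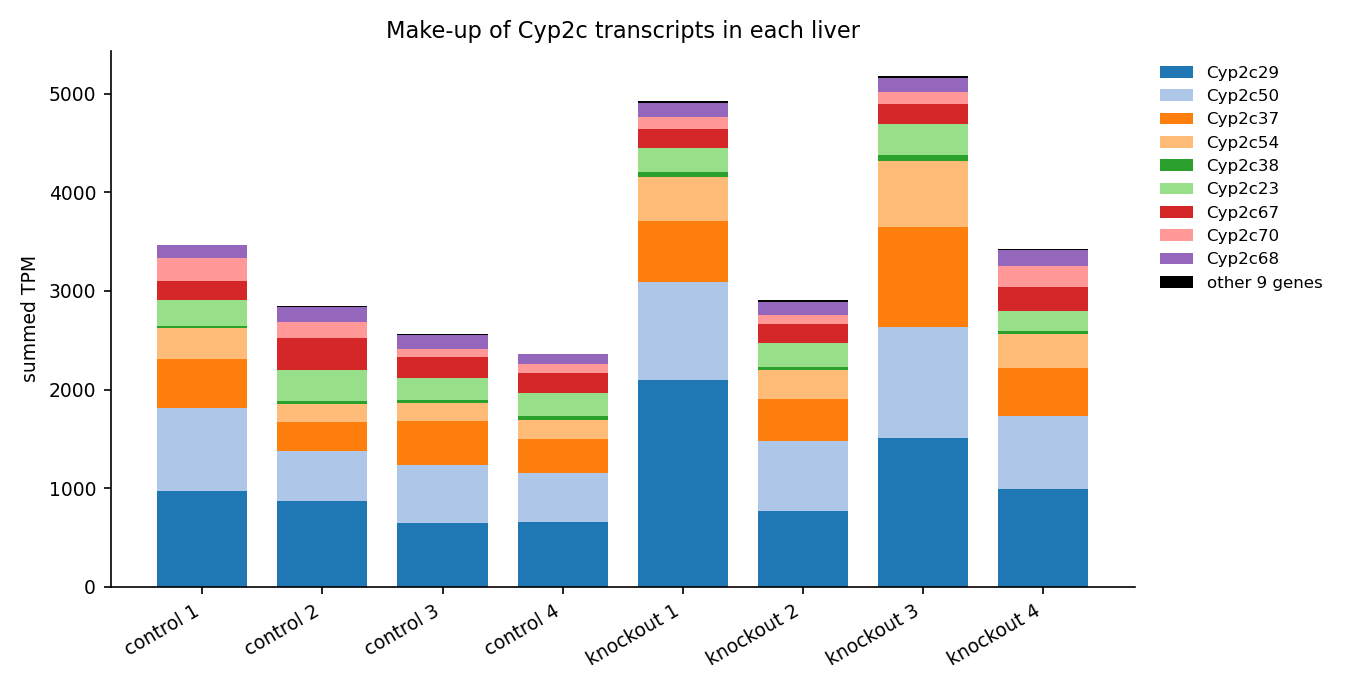
TPM of the Cyp2c genes stacked for each liver, with the 9 genes of lowest level in black. The sums run from 2364 to 3469 TPM in controls and from 2905 to 5178 TPM in knockouts, and knockouts 1 and 3 are the tallest bars.

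The knockouts differed among themselves in a way that most members shared. In all 7 members with a positive log2 fold change, knockouts 1 and 3 were both above knockouts 2 and 4, an order found in 17.6% of all genes tested. Neither Cyp2c40 nor Cyp2c69 had it, and knockout 4 was the highest knockout for both. Of the 20 regulators of the family that were tested, 7 had the same order. Nr1i3, which encodes CAR, was at 278.1 and 375.4 CPM in knockouts 1 and 3 and 162.7 and 190.6 CPM in knockouts 2 and 4. Nr1i2 had the order too, with 82.1 and 88.6 against 79.0 and 58.5 CPM, and Hnf4a did not, with 446.0 and 673.2 against 617.5 and 844.9 CPM. These orders were noticed after the values were seen, and the 7 genes share the same libraries.

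The regulators of the family were read from a list of 21 genes, of which 20 were tested. Cebpa fell and no other gene of the list was called, and 6, Cebpa among them, had an unadjusted p below 0.05, as did 18.5% of all genes. Nr1i3 was at 260.7 ± 38.4 CPM among controls against 251.7 ± 96.0 CPM among knockouts (SD, n = 4, edgeR adjusted p = 0.936). Nr1i2, the gene of PXR, was at 92.6 ± 10.8 and 77.1 ± 13.0 CPM (SD, n = 4, edgeR adjusted p = 0.323). Hnf4a was at 832.0 ± 67.3 and 645.4 ± 164 CPM (SD, n = 4, edgeR adjusted p = 0.291). The median log2 fold change of the list was -0.22, with 16 of the 20 genes negative and 4 positive. Every knockout lay below every control for 3 of them, Cebpa among these, and above for 0. Over all genes tested these shares were 5.92% and 5.54%.

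Of 28 genes known as targets of CAR or PXR, 24 were tested, 4 rose and 1 fell, with a median log2 fold change of 0.40. The log2 fold change was positive for 14 and negative for 10, and 12 had an unadjusted p below 0.05, against 18.5% of all genes. Every knockout lay above every control for 5 and below for 3, against 5.54% and 5.92% of all genes. The shares called over all genes tested were 0.849% as higher and 1.21% as lower. Gstm3, a glutathione transferase, was at 38.6 ± 7.12 CPM among controls against 275.4 ± 101 CPM among knockouts (SD, n = 4, edgeR adjusted p = 0.00165). Ugt1a9, a glucuronosyltransferase, was at 176.2 ± 51.2 and 537.0 ± 85.9 CPM (SD, n = 4, edgeR adjusted p = 0.00675). Gstm1 and Gstm2 rose 1.89-fold and 2.29-fold (edgeR adjusted p of 0.0274 and 0.0327). The sulfotransferase gene Sult1d1 fell 2.46-fold (edgeR adjusted p = 0.0176). Gstm genes and the Ugt1a genes share sequence with relatives, so each level is uncertain.

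Among the partners of P450 enzymes, none of the 16 genes for electron donors and heme metabolism was called. An unadjusted p below 0.05 was found for 2 of them, against 18.5% of all genes, and their median log2 fold change was 0.10. Por was at 693.8, 955.9, 797.4 and 923.6 CPM across controls 1 to 4, and across knockouts 1 to 4 it was 508.9, 556.4, 773.4 and 421.9 CPM. Knockout 3 alone reached into the range of the controls (log2 fold change -0.58, SE 0.18, edgeR adjusted p = 0.139). Of 27 genes that supply or use arachidonic acid, 22 were tested and Elovl2, a fatty acid elongase, fell 1.63-fold (edgeR adjusted p = 0.0334). It was the only gene of that list called, where 1.21% of all genes tested were called as lower. The median log2 fold change of that list was 0.17.

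Genes with a sex-biased level in mouse liver were read because Cyp2c40 and Cyp2c69 are among them. The sample details used here do not hold the sex of the mice, so a change of sex pattern was not tested. Cyp3a41b, of the female-biased list, had 0 counts in every liver. Of 28 other genes listed as female-biased, 19 were tested, and Lpl and Ntrk2 rose 6.18-fold and 5.56-fold while Prlr, the prolactin receptor, fell 3.30-fold (edgeR adjusted p of 0.00262, 0.0409 and 0.0404). Of the 19, 10 had a positive log2 fold change, and the median was 0.47. Of 29 genes listed as male-biased, 27 were tested, 7 were called as lower and none as higher, with a median of -0.73. Every knockout lay below every control for 9 of the 27 and above every control for 2. Of all genes tested, 1.21% were called as lower and 0.849% as higher. Every knockout lay below every control for 5.92% of all genes and above for 5.54%. Mup3, which encodes a major urinary protein, was at 4788 ± 751 CPM among controls against 278.0 ± 144 CPM among knockouts (SD, n = 4, edgeR adjusted p = 0.00105). Susd4, Mup7 and Mup21 fell 18.0-fold, 128.9-fold and 3.94-fold (edgeR adjusted p of 0.00119, 0.0116 and 0.017). Read sharing among the Mup genes was not examined.

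Several abundant Cyp2c genes are enriched in pericentral hepatocytes. Of 18 pericentral genes 1 rose and none fell, with a median log2 fold change of -0.04, where 0.849% of all genes tested were called as higher. The gene that rose was Rhbg, an ammonium transporter, 2.05-fold (edgeR adjusted p = 0.00947). None of the 17 periportal genes tested was called, 5 of each list had an unadjusted p below 0.05, against 18.5% of all genes, and the periportal median was 0.01.

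The genes most like the called members were found among 11197 genes of at least 1 CPM, by the root mean square difference of centred log2 CPM over the 8 livers. For Cyp2c55 they were Smpdl3b, Defb1 and Gsta2, at distances of 0.36, 0.41 and 0.41. For Cyp2c40 they were the urinary protein genes Mup21, Mup2 and Mup22, at 0.36, 0.37 and 0.39, of which Mup22 was not called (edgeR adjusted p = 0.119). For Cyp2c69 they were the complement gene C6, Cyp2c40 and Smyd1, at 0.47, 0.50 and 0.59, of which C6 was not called (edgeR adjusted p = 0.163). The patterns of Cyp2c69 and Cyp2c40 were thus close to each other, and these genes share reads. Centring was over all 8 livers, so a like difference between the genotypes was part of the search.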

How the data were processed

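RNA from 8 livers was sequenced as stranded mRNA libraries, per the labels' protocols. Per the submitters' processing notes the build was mm10 and the tools included RSEM 1.2.22, STAR 2.5.1, Trimmomatic 0.36, Picard 1.84 and DESeq2. No source used here gives the strand setting, read length or annotation release. The authors deposited RSEM expected counts and TPM for each gene and liver. Expected counts in the joint table equalled those of the single-liver tables.

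Expected counts were rounded and tested with edgeR 4.0.16 in R 4.3.3: genes kept by filterByExpr (minimum count 10, minimum total 15), TMM scaling, a robust quasi-likelihood fit of knockout against control without covariates, prior count 2, two-sided. Adjusted p-values are Benjamini-Hochberg over all 13303 genes tested, with a threshold of 0.05. CPM is relative to the TMM-scaled library size, and 1 count was worth 0.0341 to 0.0485 CPM. Limits and p-values from counts cover no error of read assignment. The alternatives used limma 3.58.1 and DESeq2 1.42.0. The main edgeR fit was tested on simulated data, and the limma and DESeq2 fits were not. Coding identity came from global alignments (Biopython 1.88) of GENCODE M21 transcripts on GRCm38, because the planned protein comparison was not run, and promoters from RefSeq on GRCm38.p6. Figures were drawn with matplotlib 3.10.9.

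The members and gene lists were chosen with earlier results of these data known. The named genes are the members, Cebpa, the other tested Cyp2c genes, Por, Nr1i3, Nr1i2 and Hnf4a, at most 4 called genes per list and direction, and for each called member the 3 genes most like it.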

Additional observations from a re-analysis of the deposited data

Results flagged for a closer look

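Cyp2c54 in control 1 stood far from the other controls. Its level was 417.6 CPM, where the other controls were at 225.0 to 252.3 CPM, and the gap to the nearest of them was 0.858 of the range of the group, above Dixon's 95% critical value for groups of 4. Of 18 groups examined, 2 for each of the 9 members, this was the only one so marked, and chance alone marks about 5% of groups. Control 1 also held the highest control level of Cyp2c37 and Cyp2c50, at 668.4 and 1093 CPM, and of Cyp2c29 and Cyp2c55. It was not the highest control for Cyp2c38, Cyp2c39, Cyp2c40 and Cyp2c69. Without control 1 the log2 fold change of Cyp2c54 was 1.16 (edgeR adjusted p = 0.118), and without knockout 3 it was 0.59 (edgeR adjusted p = 0.3).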

How the results depend on the processing

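Cyp2c55 kept its direction and its call under all 19 alternatives tried, with log2 fold changes of 2.29 to 3.24. Leaving out 1 liver gave 1 to 3 called members and 108 to 372 called genes, with log2 fold changes of -2.54 to -1.84 for Cyp2c40 and -3.50 to -2.41 for Cyp2c69. The extremes of the count of genes came without knockout 2 and without knockout 4, and 431 genes (185 higher, 246 lower) were called without control 2 and knockout 4 together. Cyp2c40 was called in 15 of 19 alternatives and Cyp2c69 in 9 of the 18 that tested it. Cyp2c69 missed the threshold with limma-voom (-2.81, adjusted p = 0.0538) and limma on log2(TPM + 1) (-0.79, adjusted p = 0.0692), and fell below a filter of 1 CPM in 4 livers. DESeq2 called Cyp2c54 (0.90, adjusted p = 0.0314) and 850 genes (388 higher, 462 lower).

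With the replicate number as a block, 1 member and 176 genes (78 higher, 98 lower) were called, and Cyp2c40 and Cyp2c69 had log2 fold changes of -2.13 and -2.78 (edgeR adjusted p = 0.0739 and 0.0981). The deviations of livers that share a number had correlations of 0.246, 0.022, -0.02 and -0.046. Livers of different numbers were not compared in this way, so these values cannot exclude pairing. The numbers were read as names and not as pairs because the labels do not say that they pair mice.

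No reversed value belonged to a member. Cyp2c68 was at -0.075, -0.001 and -0.015 without control 4, knockout 3 and knockout 4, and ran from -0.075 to 0.084 over all fits with 1 liver left out. Cyp2c70 was at 0.016 and 0.017 on log2(TPM + 1) and log2(TPM + 0.1) and at 0.178 without control 1 (-0.485 to 0.178 with 1 liver left out), and Cyp2c23 at 0.045 without control 2 and knockout 4. The cause of these changes was not tested. On log2(TPM + 0.1) the median of all genes was 0.116. Depth limits Cyp2c69, of which the knockouts held 16.1 counts in total, and left Cyp2c65 untested.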
